A study of Mus musculus with 6 samples.

Results

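The genes described here encode the LSD1, CoREST and histone deacetylase (HDAC) corepressors. They are the demethylase gene Kdm1a (LSD1), the CoREST genes Rcor1, Rcor2 and Rcor3, the deacetylase genes Hdac1, Hdac2 and Hdac3, and the complex subunits Hmg20b and Gse1. They were chosen by mouse gene symbol, and all 9 were found among the 14005 genes listed. RNA was sequenced from FLK1+ mesoderm, that is, cells carrying the VEGF receptor FLK1 (Kdr), isolated with magnetic beads at day 3.5 from embryoid bodies (EBs) formed by mouse embryonic stem (ES) cells. The libraries, titled J1, came from WT cells and from Scl -/- cells, which lack the haematopoietic transcription factor SCL (TAL1), with 3 libraries in each group from separate differentiations. The WT and Scl -/- cells are separate ES lines, so that the genotype and any other difference between the lines cannot be told apart. The strain is given as C57Bl/6 X Sv129 for WT replicates 1 and 2 and Scl -/- replicate 1, and with Sv130, Sv131 and Sv132 in place of Sv129 for Scl -/- replicate 2, WT replicate 3 and Scl -/- replicate 3. Values are read counts scaled to the size of each library (CPM), given throughout in the order of replicates 1 to 3. Counts over the listed genes summed to between 38623641 and 47621120 per library, where a read in overlapping genes may be counted more than once.

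LSD1 removes methyl groups from H3K4, a mark of active promoters and enhancers, while HDACs remove acetyl groups from histone tails. CoREST proteins hold LSD1 and HDAC1 or HDAC2 together in a complex, which zinc-finger repressors such as GFI1 and GFI1B bring to their target genes in blood cells, and LSD1 has also been found in complexes with TAL1. HDAC3 acts mainly within the NCoR/SMRT complex.

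The comparison asks how these genes are expressed in FLK1+ cells with and without SCL. Tal1, the disrupted gene, had 303, 182 and 306 CPM in WT and 9.35, 5.68 and 5.87 CPM in Scl -/- cells. All 9 members passed the filter on low values, at least 0.5 CPM in at least 3 libraries, as did 13991 genes in all. A negative log2 fold change means a lower level in Scl -/- cells, and all come from limma on log2(CPM + 0.5), with p-values adjusted by the Benjamini-Hochberg method over all tested genes. A gene was called at an adjusted p under 0.05 with an absolute log2 fold change above 0.48. Same-numbered libraries varied together, so the fit with the replicate number as a block is given where it changes a call.

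Of the members, 1 was called without the block (Gse1), where 2.36% of all tested genes were called, and 2 with it (Gse1 and Rcor3), where 12.6% were. Both were lower in Scl -/- cells. On adjusted p alone, 3 members passed with the block, Rcor1 being the other (though not without pair 2), against 24.2% of all tested genes. The libraries of the groups did not overlap for Gse1 and Rcor3, which were lower in Scl -/- cells, as 10.7% of all tested genes were, nor for Hdac2, which was higher, as 11% were. The median log2 fold change was -0.030 for the 9 members and 0.009 for all tested genes. Shares over so few genes are coarse.

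**Figure D1:**
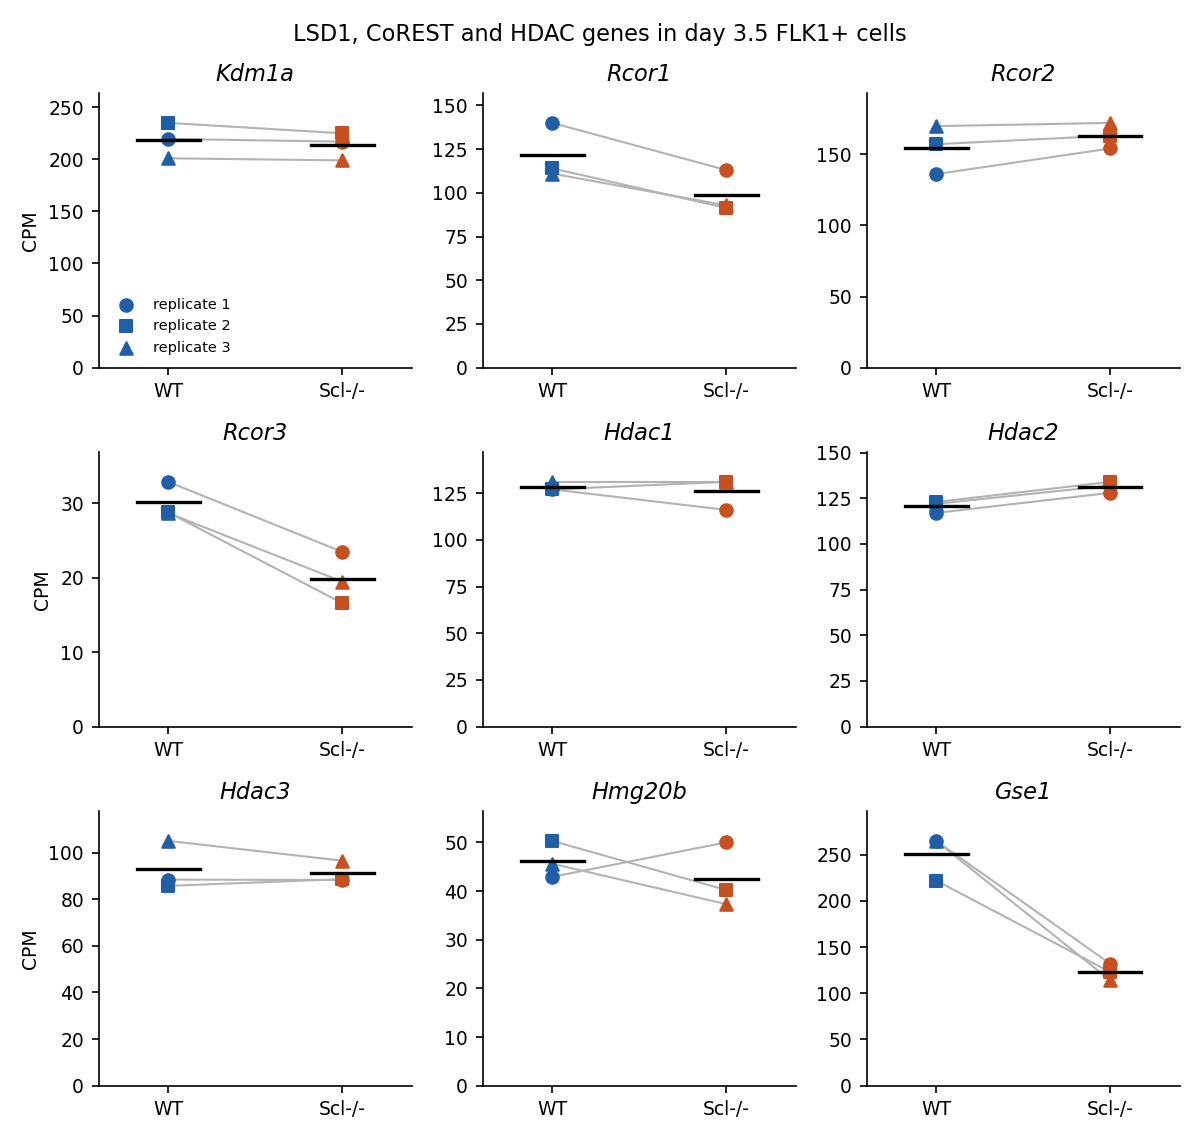
CPM of each of the 9 members (vertical axes, from 0) in the WT (blue) and Scl-/- (orange) libraries, with grey lines joining libraries of the same replicate number and black bars at the group means. Gse1 runs from 222 to 265 CPM in WT and from 114 to 132 CPM in Scl-/- libraries, while Kdm1a spans 199 to 235 CPM over both groups.

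Kdm1a encodes the catalytic subunit LSD1. It had 219.6, 235 and 201 CPM in WT and 217, 225 and 199 CPM in Scl -/- cells. The ranges of the groups nearly coincided, and the libraries differed more between replicate numbers than between genotypes, with number 2 highest and number 3 lowest in both groups. The log2 fold change was -0.03 (standard error 0.10, Benjamini-Hochberg adjusted p in limma = 0.943). With the replicate block, its 95% confidence interval ran from -0.16 to 0.10, so that a change as large as the threshold of 0.48 in either direction lay outside it. Kdm1a (Ensembl ENSMUSG00000036940) lies on the minus strand of chromosome 4 from 136106455 to 136158638 of mm9, and its 3′ end overlaps that of Luzp1, on the other strand, by 4241 bases. Luzp1 had a log2 fold change of 0.27 (Benjamini-Hochberg adjusted p in limma = 0.336, or 0.015 with the block), below the fold threshold. Reads in the overlap cannot be told apart if the counting did not use strand.

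The CoREST genes encode the scaffolds that tie LSD1 to the deacetylases. Rcor1 (ENSMUSG00000037896, chromosome 12, 112277561 to 112354112) had 140.0, 114 and 111 CPM in WT and 113, 91.3 and 92.8 CPM in Scl -/- cells. Replicate 1 was the highest of each group, and Scl -/- replicate 1 lay within the WT range, so the groups overlapped although the Scl -/- library was the lower of each pair, by log2 differences of -0.31, -0.32 and -0.26. The log2 fold change of -0.30 had a standard error of 0.13 (Benjamini-Hochberg adjusted p in limma = 0.296). With the block the adjusted p was 0.00959 (limma, Benjamini-Hochberg) and the 95% confidence interval ran from -0.43 to -0.16, a difference under the fold threshold, so Rcor1 was not called. Its log2 fold change was -0.19 without WT replicate 1, and with the block but without pair 2 it was -0.29 (Benjamini-Hochberg adjusted p in limma = 0.0843).

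Rcor2 (ENSMUSG00000024968, chromosome 19, 7341815 to 7349715) had 136, 157 and 169.7 CPM in WT and 154, 163 and 172 CPM in Scl -/- cells. The Scl -/- library was the higher of each pair, by log2 differences of 0.18, 0.06 and 0.02, but the groups overlapped. The log2 fold change was 0.09 (standard error 0.11, Benjamini-Hochberg adjusted p in limma = 0.786), with a 95% confidence interval from -0.06 to 0.23 with the block.

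Rcor3 (ENSMUSG00000037395) was the member with the lowest level. It had 32.9, 28.8 and 28.7 CPM in WT and 23.5, 16.6 and 19.5 CPM in Scl -/- cells. Every Scl -/- library lay below every WT library, and the log2 differences within pairs were -0.47, -0.78 and -0.55. The log2 fold change was -0.60 (standard error 0.15, Benjamini-Hochberg adjusted p in limma = 0.102), and Rcor3 was called only with the block (standard error 0.09, Benjamini-Hochberg adjusted p in limma = 0.00372). Rcor3 lies on the minus strand of chromosome 1 from 193922652 to 193961892, where the median log2 fold change of the 789 tested genes was -0.29. Within 500 kb of Rcor3, 9 other genes were tested, their log2 fold changes had a median of -0.53, and 5 of them were called with the block. With the median deviation of each chromosome removed from each library, the log2 fold change of Rcor3 was -0.31 (Benjamini-Hochberg adjusted p in limma = 0.466, or 0.0671 with the block), and it was not called. On the other strand, Gm10516 overlaps Rcor3 by 1113 bases and Gm16621 by 860 bases. Both had low levels, with means of 2.73 and 5.02 CPM in WT and 1.76 and 3.47 CPM in Scl -/- cells, and log2 fold changes of -0.53 and -0.48. Gm10516 was called with the block (Benjamini-Hochberg adjusted p in limma = 0.293, or 0.0398 with the block), but leaving out any of the pairs lost the call (-0.61, -0.49 and -0.50 without pairs 1, 2 and 3). The remaining members lie on other chromosomes, none of them on chromosome 11, where the median was 0.31, and none of their calls changed in that setting.

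Levels of different genes were compared as CPM per kb of annotated exon. In WT cells the CoREST genes summed to 77.1, 78.1 and 81.8 CPM per kb in replicates 1 to 3, and in Scl -/- cells to 75.5, 72.7 and 76.6. Rcor2 made up most of this sum, 62.1% ± 5.32 (SD, n = 3) in WT and 69.4% ± 3.75 (SD, n = 3) in Scl -/- cells. Rcor1 held 27.2% ± 4.21 (SD, n = 3) and 23.2% ± 2.63 (SD, n = 3), and its share was highest in replicate 1 of both groups, at 32% in WT and 26.2% in Scl -/- cells. Rcor3 held 10.7% ± 1.11 (SD, n = 3) and 7.42% ± 1.21 (SD, n = 3), and its share was lower in every Scl -/- library than in any WT library.

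**Figure D2:**
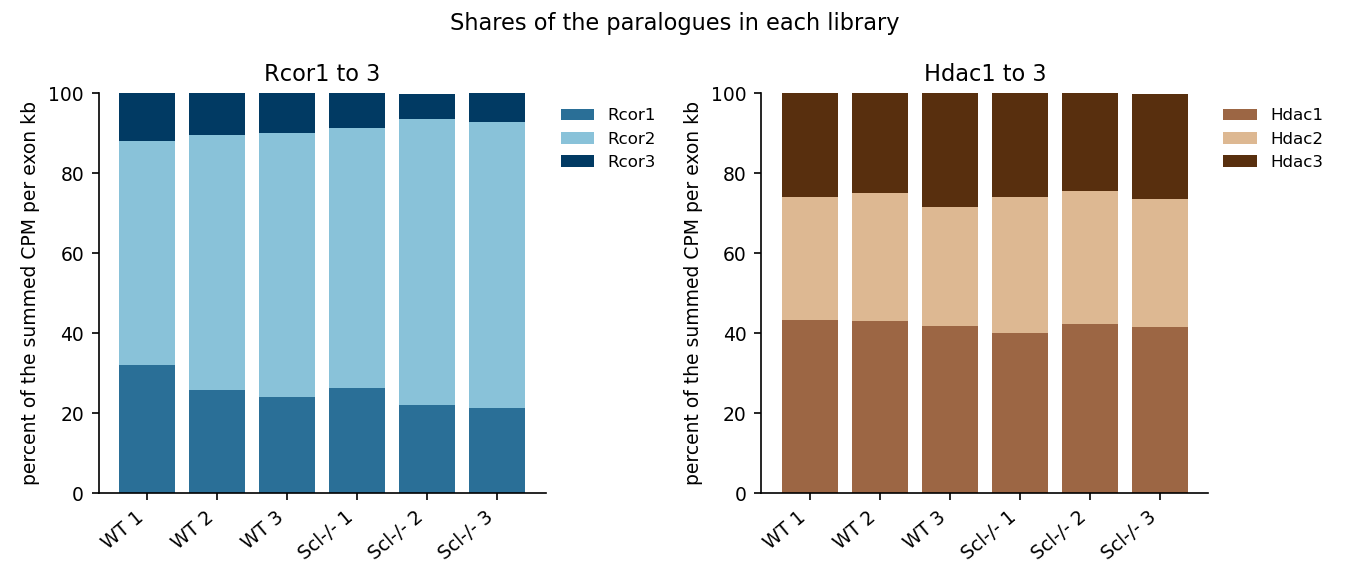
Stacked bars give the percent of a panel's summed CPM per kb of exon that each of its genes held in each of the 6 libraries. The CoREST genes are on the left, and Hdac1, Hdac2 and Hdac3 are on the right. Rcor2 holds 56.1% to 71.6% of the CoREST sum, and the Rcor3 share is smaller in each Scl-/- library than in any WT library.

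Ratios between paralogues within a library do not depend on how the libraries were scaled. A two-sided exact permutation test over the libraries was run on such log2 ratios, with p adjusted over the 4 that were planned by the Benjamini-Hochberg method, and with 3 libraries against 3 it cannot give a p below 0.1. The log2 ratio of Rcor3 to Rcor1 averaged -1.99 ± 0.07 (SD, n = 3) in WT and -2.30 ± 0.12 (SD, n = 3) in Scl -/- cells, a difference of -0.30 (exact permutation p = 0.1, adjusted p = 0.2). With chromosome medians removed, the log2 fold changes of Rcor3 and Rcor1 were -0.31 and -0.28, so most of this difference was not seen in that setting. The Rcor3 share was not computed in it. The log2 ratio of Rcor1 to Rcor2 was 0.05, -0.46 and -0.61 in WT and -0.45, -0.83 and -0.89 in Scl -/- cells. This ratio was lower in the Scl -/- library of each pair but varied widely within the groups, and the difference of -0.38 gave an exact permutation p = 0.3 and an adjusted p = 0.4. This difference was -0.19 without WT replicate 1 and reached -0.52 with other libraries left out.

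Hdac1 and Hdac2 encode the deacetylases of the CoREST, NuRD and SIN3 complexes. Hdac1 (ENSMUSG00000028800, chromosome 4, 129193348 to 129219957) had 127, 127 and 131 CPM in WT and 116, 131 and 131 CPM in Scl -/- cells. The libraries were alike apart from the lower value of Scl -/- replicate 1, and the log2 fold change was -0.03 (standard error 0.09, Benjamini-Hochberg adjusted p in limma = 0.938). Hdac2 (ENSMUSG00000019777, chromosome 10, 36694350 to 36721695) had 117, 123 and 122 CPM in WT and 128, 134 and 132 CPM in Scl -/- cells. All Scl -/- values lay above all WT values, and the log2 differences within pairs were 0.13, 0.12 and 0.11. The log2 fold change was small, 0.12 (standard error 0.08, Benjamini-Hochberg adjusted p in limma = 0.534, or 0.174 with the block), and Hdac2 was not called. The block's 95% confidence interval, -0.01 to 0.25, holds 0 and stays below the fold threshold.

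The log2 ratio of Hdac1 to Hdac2 was 0.12, 0.05 and 0.11 in WT and -0.14, -0.04 and -0.01 in Scl -/- cells. The groups did not overlap, and the difference of -0.15 gave the smallest p that the exact permutation test allows (p = 0.1, adjusted p = 0.2). Hdac3 (ENSMUSG00000024454, chromosome 18, 38095498 to 38114642), the enzyme of the NCoR/SMRT complex, ranged from 85.7 to 105 CPM in WT and from 88.2 to 96.5 CPM in Scl -/- libraries. Its log2 fold change was -0.03 (standard error 0.11, Benjamini-Hochberg adjusted p in limma = 0.962). Summed per kb of exon, the 3 deacetylase genes had 87.3 ± 3.6 CPM per kb (SD, n = 3) in WT and 88.4 ± 3.85 CPM per kb (SD, n = 3) in Scl -/- cells. Hdac1 held 42.7% ± 0.887 (SD, n = 3) of that sum in WT and 41.3% ± 1.1 (SD, n = 3) in Scl -/- cells.

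Hmg20b encodes an HMG-box subunit of the CoREST complex. The gene (ENSMUSG00000020232, chromosome 10, 80808793 to 80813225) had 42.9, 50.3 and 45.6 CPM in WT and 50, 40.2 and 37.3 CPM in Scl -/- cells. The pairs went in different directions, with log2 differences of 0.22, -0.32 and -0.28, and the log2 fold change was -0.13 (standard error 0.14, Benjamini-Hochberg adjusted p in limma = 0.737). Among the members, its 95% confidence interval with the block, -0.39 to 0.13, was the widest. Its log2 fold change ran from -0.25 without Scl -/- replicate 1 to -0.04 without Scl -/- replicate 3. Without pair 1 it was -0.30 (Benjamini-Hochberg adjusted p in limma with the block = 0.0272), under the fold threshold, while without pair 2 it was -0.03 and without pair 3 -0.05 (adjusted p 0.92 and 0.847 by limma and Benjamini-Hochberg with the block).

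**Figure D3:**
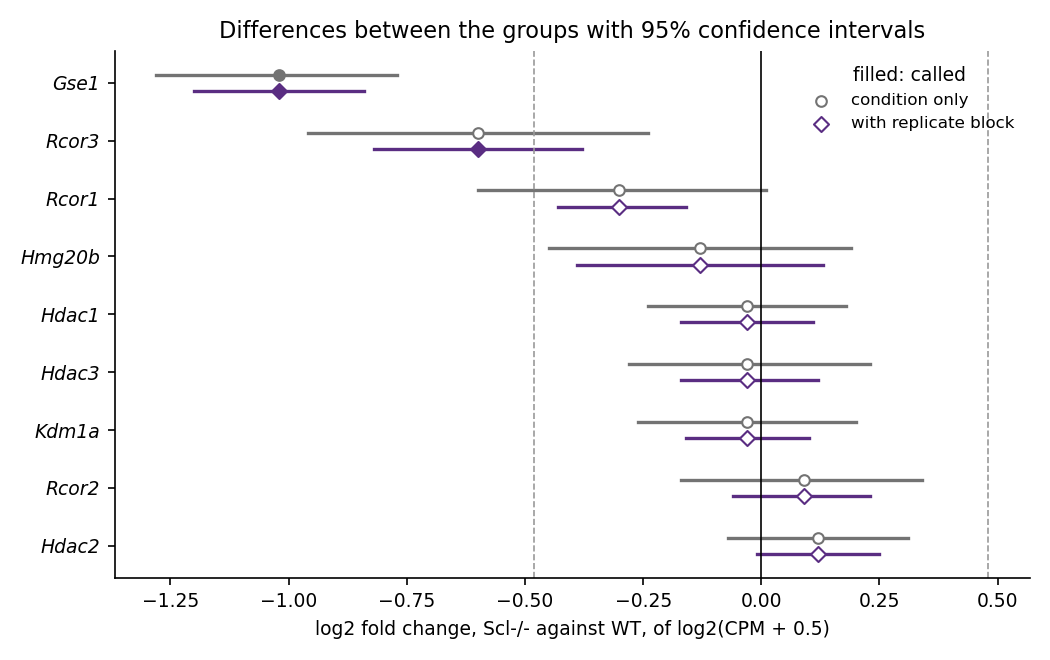
Log2 fold change of each member (Scl-/- against WT) with its 95% confidence interval from limma, fitted with condition only (grey circles) and with the replicate block (purple diamonds), where filled symbols are called and dashed lines mark the fold threshold of 0.48. The intervals of 7 members with the block lie between the dashed lines, and those of Gse1 (-1.20 to -0.84) and Rcor3 (-0.82 to -0.38) reach past the lower line.

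Gse1 encodes a coiled-coil protein that copurifies with LSD1, CoREST and HDAC proteins. It had 265, 222 and 265 CPM in WT and 132, 123 and 114 CPM in Scl -/- cells. The groups were far apart, with WT replicate 2 the lowest of its group, and the log2 differences within pairs were -0.99, -0.85 and -1.22. The mean fell by 50.9%, and the log2 fold change was -1.02 with a 95% confidence interval from -1.28 to -0.77 (Benjamini-Hochberg adjusted p in limma = 0.0069, or 1.5e-04 with the block). Without WT replicate 1 it was -0.98 (standard error 0.13), and the adjusted p of 0.0579 (limma, Benjamini-Hochberg) was no longer under the threshold, the highest of the range from 1.2e-05 to 0.0579 over all alternatives. Without this library 44 genes were called in all. Whether fewer cells expressed a gene or each cell held less of its RNA cannot be told apart in RNA from pooled cells.

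Gse1 (ENSMUSG00000031822) lies on the plus strand of chromosome 8 from 123012766 to 123105290 of mm9, and 6 other tested genes lie within 500 kb. Their median log2 fold change was -0.09. Zdhhc7 (0.07), Emc8 (0.08) and Cox4i1 (-0.04) had log2 fold changes near 0 and were not called. The uncharacterised gene 1110050K14Rik had a log2 fold change of -1.06 and was called with the block only (Benjamini-Hochberg adjusted p in limma = 0.381, or 0.024 with the block). Its pairs were uneven, with 53.2, 41.1 and 31.1 CPM in WT and 51.3, 12.9 and 10.7 CPM in Scl -/- cells, and with the block it was not called without pair 2 (-0.78) or pair 3 (-0.84). Gins2, a subunit gene of the GINS replication complex on the opposite strand, overlaps the 3′ end of Gse1 by 2758 bases. It had a log2 fold change of -0.25 (Benjamini-Hochberg adjusted p in limma = 0.285, or 0.0395 with the block), and its mean differed by -25.4 CPM, against -128 CPM for Gse1. The last neighbour, Gm20388, is a readthrough model that spans Gse1, with a log2 fold change of -0.13 (Benjamini-Hochberg adjusted p in limma = 0.643).

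How reads were counted is not given in the sources used here, and the value of Gm20388 bears on it. Its exons add up to 3953 bases in a span of 4434882 bases, yet its mean over the 6 libraries was 6783 CPM. The 64 listed genes inside the span summed to 3123 CPM on its own strand and to 6341 CPM on both. Among 11 genes with spans over 150000 bases and at least 4 listed genes inside, the gene's own value was between 0.655 and 1.54 times the sum inside it, with a median of 1.06. A count of all reads between a gene's start and end, on either strand and in exons and introns alike, is one way to get such values, and it was not tested further. The reads where Gse1 overlaps Gins2, Kdm1a overlaps Luzp1, and Rcor3 overlaps Gm10516 and Gm16621 may therefore be in both genes' values, and levels per kb of exon may include reads from introns.

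RefSeq promoters (GRCm38.p6) were found for 7 of the 9 members, in 11 windows of 250 bases before a start site, and each window matched mm9 exactly and in 1 place on its chromosome. Gse1 is shown because it is the member called in both fits and because the table gives it 3 start sites, wide apart. The windows were searched on both strands for CANNTG, the E-box that SCL binds with its E-protein partners, and for GATAA, which is bound by GATA factors, and no matches of these motifs overlap in the windows. Capitals mark a match, and each sequence is on the plus strand of chromosome 8 of mm9, written 5′ to 3′.
Gse1 start at 123012766 (chr8:123012516-123012765): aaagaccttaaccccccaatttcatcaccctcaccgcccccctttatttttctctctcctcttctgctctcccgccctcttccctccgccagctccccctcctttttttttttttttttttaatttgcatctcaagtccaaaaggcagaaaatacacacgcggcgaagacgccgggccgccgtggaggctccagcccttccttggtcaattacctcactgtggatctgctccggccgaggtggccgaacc
Gse1 start at 123059757 (chr8:123059507-123059756): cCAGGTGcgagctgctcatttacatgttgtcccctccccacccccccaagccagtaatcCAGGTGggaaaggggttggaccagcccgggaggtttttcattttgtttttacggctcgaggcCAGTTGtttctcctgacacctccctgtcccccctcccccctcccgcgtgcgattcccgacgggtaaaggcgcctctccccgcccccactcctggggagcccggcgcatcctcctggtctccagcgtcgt
Gse1 start at 123061309 (chr8:123061059-123061308): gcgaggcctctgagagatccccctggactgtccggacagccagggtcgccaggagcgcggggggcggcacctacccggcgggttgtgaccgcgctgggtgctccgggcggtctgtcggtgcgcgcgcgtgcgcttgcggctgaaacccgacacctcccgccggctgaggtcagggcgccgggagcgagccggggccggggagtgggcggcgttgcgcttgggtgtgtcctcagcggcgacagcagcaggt
The window at 123012516 lies before the annotated start of Gse1, and the other 2 lie in introns of the gene, with no exon annotated in them. The window ending at 123059756 holds 3 E-boxes, of which 2 read CAGGTG and the third CAGTTG, and the other Gse1 windows hold none. Among the remaining members, the window of Rcor2 holds an E-box, CACGTG, and those of Kdm1a, Rcor1, Rcor3, Hdac2 and Hmg20b hold none. No window of any member holds GATAA. Of the 32851 promoters in the table, 66.2% hold CANNTG and 22.6% hold GATAA in the same 250 bases. A match of letters is a description of these windows, and binding was not analysed here.

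**Figure D4:**
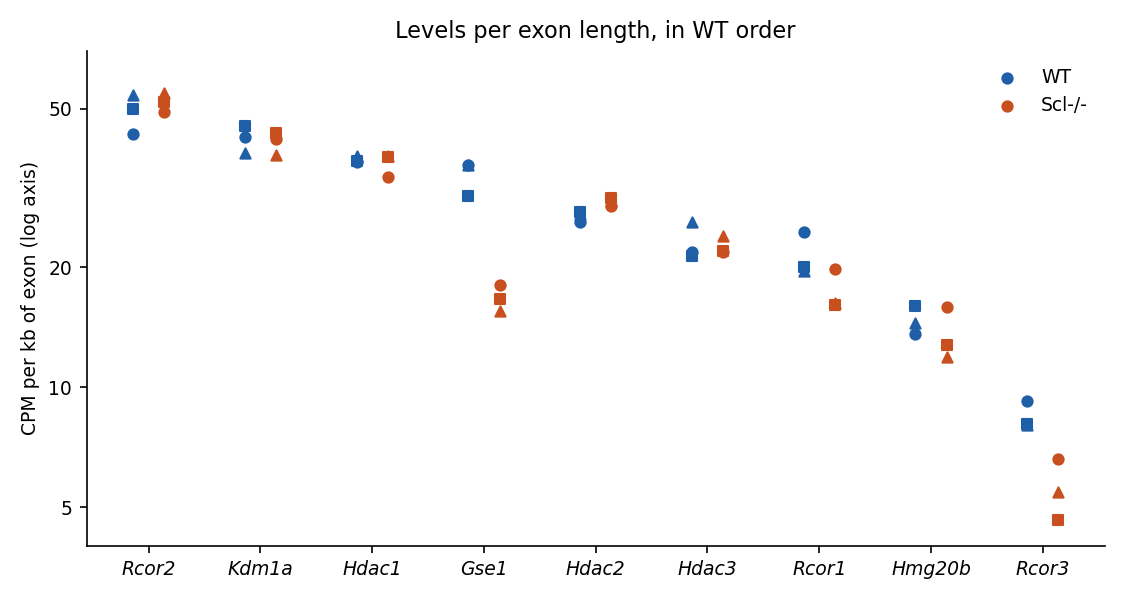
Level of each member as CPM per kb of exon (log axis) in the 3 WT (blue) and 3 Scl-/- (orange) libraries, ordered by the WT mean, with circles, squares and triangles for replicates 1, 2 and 3. Gse1 is the member that changes place, from 34.2 CPM per kb in WT to 16.8 CPM per kb in Scl-/- cells.

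The order of the levels in WT cells began with Rcor2 at 49.1 ± 5.5 CPM per kb of exon (SD, n = 3) and Kdm1a at 42.2 ± 3.28 CPM per kb (SD, n = 3), whose libraries overlapped. Hdac1 (37.3 CPM per kb) and Gse1 (34.2 CPM per kb) came next, without overlap between them. Hdac2 (26.9), Hdac3 (23.1) and Rcor1 (21.4 CPM per kb) followed, each overlapping its neighbour in this order, and then Hmg20b (14.7) and Rcor3 (8.44 CPM per kb), which stood apart. In Scl -/- cells Gse1 had moved from rank 4 to rank 7 of the 9, at 16.8 ± 1.29 CPM per kb (SD, n = 3), where it overlapped Rcor1 (17.4) and Hmg20b (13.5 CPM per kb). The other members kept their order. The step of the CPM values gave between 685 and 10902 reads per member and library, and at the lowest of these, Rcor3 in Scl -/- replicate 2, counting error alone is 3.82%, below the spread between the libraries of either group.

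The genes most like Gse1 over the 6 libraries, by Pearson's r of log2(CPM + 0.5) among 11716 tested genes averaging at least 5 CPM, were Capza1 (r = 0.999), Ctla2a (0.998), Nrip3 (0.998), Lsm14b (0.997) and Tal1 (0.995). Their sizes of difference were unlike, since r takes no account of scale. Capza1, an actin capping subunit gene, had a log2 fold change of -0.11 and was not called, while Nrip3 had -3.86 and Ctla2a -3.44, both called. For Kdm1a the nearest genes were Gmeb2, Klhl15 and Vapa (each r = 0.996), Rbm39 (0.995) and Col4a3bp (0.995). None of these was called, and like Kdm1a they followed the replicate numbers, as with Rbm39 at 391, 495 and 301 CPM in WT and 393, 448 and 287 CPM in Scl -/- cells. These coefficients over 6 libraries of 2 groups are descriptions.

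Lists of partner genes were described by counts and medians beside all tested genes. Of the 13991 tested genes, 2474 had an unadjusted p under 0.05 in limma without the block and 5161 with it. Over 8 lists, 71 distinct genes were tested, of which 3 were called without the block (2 lower and 1 higher in Scl -/- cells) and 11 with it (6 lower and 5 higher), or 15.5% against 12.6% of all tested genes. The median log2 fold change was -0.013, and the median absolute log2 fold change was 0.11, against 0.16 for all tested genes.

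**Figure D5:**
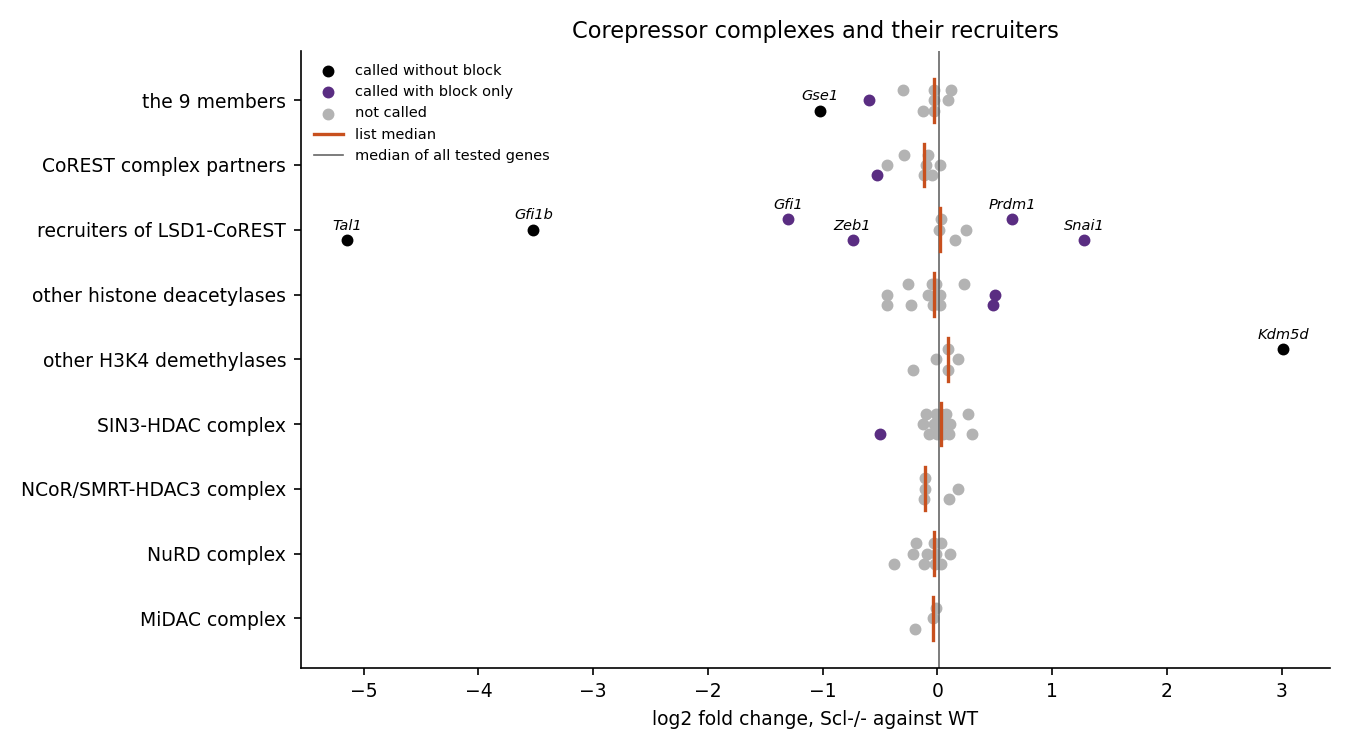
Log2 fold change (Scl-/- against WT, horizontal axis) of each tested gene of the 9 members and of the 8 partner lists, with black points called without the block, purple points called with it only and grey points not called. Orange bars are list medians and the grey line is the median of all tested genes, 0.009. The recruiters of LSD1-CoREST spread from -5.14 (Tal1) to 1.28 (Snai1), while the genes of the NCoR/SMRT-HDAC3, NuRD and MiDAC complexes lie between -0.38 and 0.18.

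The DNA-binding proteins that recruit LSD1-CoREST had the widest spread, with a median absolute log2 fold change of 0.70. Of 10 tested genes, 2 were called without the block, Gfi1b and the disrupted gene Tal1, where 2.36% of all tested genes were. With it 6 were called, 4 lower (Tal1 among them) and 2 higher in Scl -/- cells, where 12.6% of all tested genes were. The list, like the others, was chosen with earlier results of these data known. Gfi1b, a SNAG-domain repressor of erythroid and megakaryocytic cells, had 6.4, 2.93 and 11.6 CPM in WT and 0.102, 0.0483 and 0.068 CPM in Scl -/- cells. The Scl -/- values stand for very few reads. The log2 fold change of Gfi1b was -3.52, and -5.16 and -2.74 with pseudocounts of 0.1 and 1. Without the block its call was lost without WT replicate 1 (-3.49), but with the block it was called with each pair left out. Its paralogue Gfi1 was low in WT as well, at 1.23, 0.549 and 1.75 CPM. The log2 fold change of Gfi1 was -1.30, and -2.25 and -0.88 with pseudocounts of 0.1 and 1. Gfi1 was called with the block, but not without pair 3 (-0.95). Zeb1 and Snai1 encode zinc-finger repressors that bind E-boxes and act in epithelial to mesenchymal transition. Zeb1 had 42.9, 30.1 and 33.5 CPM in WT and 27.4, 18.8 and 17.3 CPM in Scl -/- cells, without overlap, and was called with the block only, with a log2 fold change of -0.74 (Benjamini-Hochberg adjusted p in limma = 0.125, or 0.0013 with the block). Snai1 went the other way, from 43.9, 102 and 67.5 CPM in WT to 96.7, 225 and 205 CPM in Scl -/- cells. The groups of Snai1 overlapped, yet in every pair the Scl -/- library was the higher, and with a log2 fold change of 1.28 it was called with the block only (Benjamini-Hochberg adjusted p in limma = 0.148, or 1.5e-04 with the block). Prdm1, which encodes BLIMP1, was low and higher in Scl -/- cells, at 3.54, 3.79 and 4.15 against 5.31, 4.81 and 9.59 CPM, with a log2 fold change of 0.65 (Benjamini-Hochberg adjusted p in limma = 0.248, or 0.0308 with the block). It was 0.36 without Scl -/- replicate 3, and with the block the call was lost without pair 2 (0.82) and without pair 3 (0.42). Sall4, the list's most abundant gene at 83.7 CPM per kb of exon, had a log2 fold change of 0.25 and was not called.

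Of the 8 CoREST complex partners, 2 had an unadjusted p under 0.05 in limma without the block and 3 with it. Of these 8, 0 were called without the block and 1 with it, where 2.36% and 12.6% of all tested genes were. That gene, Rreb1, encodes a zinc-finger protein that associates with CtBP and CoREST, and it had 146, 131 and 129.7 CPM in WT and 78.9, 105 and 98.4 CPM in Scl -/- cells. All its Scl -/- values were lower, with a log2 fold change of -0.53 (Benjamini-Hochberg adjusted p in limma = 0.0883, or 0.0103 with the block). Without pair 1 it was -0.35 and not called. The groups did not overlap for Rreb1 and Phf21a, both lower in Scl -/- cells, where 10.7% of all tested genes were. Phf21a, whose product BHC80 reads unmethylated H3K4, had a log2 fold change of -0.44, under the fold threshold. The most abundant partner, Ctbp1 (76.8 CPM per kb), had a log2 fold change of -0.12 and was not called.

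In the SIN3-HDAC complex, 1 of 16 tested genes had an unadjusted p under 0.05 in limma without the block and 3 with it. Of these 16, 0 were called without the block and 1 with it, where 2.36% and 12.6% of all tested genes were. This was Sap30, a subunit that bridges SIN3 and the deacetylases, with 39.9, 37.9 and 42.5 CPM in WT and 31.6, 25.5 and 27.6 CPM in Scl -/- cells, and a log2 fold change of -0.50 (Benjamini-Hochberg adjusted p in limma = 0.0869, or 0.0054 with the block). With the block it was not called without pair 2 (-0.47) or pair 3 (-0.45). The scaffold gene Sin3a had a log2 fold change of 0.00. Of all 13991 tested genes, 2474 had an unadjusted p under 0.05 in limma without and 5161 with the block, against 1 and 2 of the 11 NuRD genes. Of these 11, 0 were called in either fit. The remodeller gene Chd4 was the most abundant of them at 122 CPM per kb, with a log2 fold change of -0.09. Rbbp7, a histone chaperone gene of both complexes, had 105 CPM per kb and a log2 fold change of -0.03. Of the 5 NCoR/SMRT-HDAC3 genes, 0 were called in either fit by limma, with 0 at an unadjusted p under 0.05 without and 1 with the block, and the most abundant, Tbl1x (39.4 CPM per kb), had a log2 fold change of -0.12. The 3 tested MiDAC genes gave 0 calls and 0 unadjusted p under 0.05 in either limma fit, with Dnttip1 (22.8 CPM per kb) at a log2 fold change of -0.01.

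Among the other 14 tested histone deacetylase genes, 3 had an unadjusted p under 0.05 in limma without the block and 6 with it. Of all 13991 tested genes, 2474 and 5161 did. Of these 14 deacetylase genes, 0 were called without the block and 2 with it, where 2.36% and 12.6% of all tested genes were. Both were higher in Scl -/- cells. Hdac5, a class IIa enzyme, had 95.9, 112 and 115 CPM in WT and 134, 143 and 174 CPM in Scl -/- cells, and a log2 fold change of 0.48, just past the threshold (Benjamini-Hochberg adjusted p in limma = 0.114, or 0.00225 with the block). Sirt7 had a log2 fold change of 0.50 (Benjamini-Hochberg adjusted p in limma = 0.226, or 0.0103 with the block). With the block, Hdac5 was not called without pair 3 (0.42) nor Sirt7 without pair 2 (0.42). Both lie on chromosome 11, and with chromosome medians removed their log2 fold changes were 0.18 and 0.20, with adjusted p of 0.145 and 0.215 with the block (limma, Benjamini-Hochberg). Hdac7, the most abundant of the list at 29.2 CPM per kb, had a log2 fold change of -0.26 and was not called. Of the 6 other H3K4 demethylase genes, 1 had an unadjusted p under 0.05 in limma without the block and 3 with it. The same 1 of these 6 was called in both fits, where 2.36% and 12.6% of all tested genes were. It was the Y-linked Kdm5d, with 0.502, 1.18 and 0.728 CPM in WT and 4.51, 12.9 and 15.5 CPM in Scl -/- cells. Without the block, its log2 fold change of 3.01 was not called without WT replicate 1 (2.84) or 3 (2.98) or Scl -/- replicate 2 (2.82) or 3 (2.69), nor with chromosome medians removed (1.30, Benjamini-Hochberg adjusted p in limma = 0.219, or 0.0105 with the block). The median removed was that of the tested genes of chromosome Y, Kdm5d among them. With the block, Kdm5d was called without pair 1 (3.35), pair 2 (3.01) and pair 3 (2.66). Its X-linked homologue Kdm5c, the most abundant of the list at 32.9 CPM per kb, had a log2 fold change of 0.09 and was not called.

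Markers of several cell types differed between the groups. Kdr, the marker used to isolate the cells, had 868, 832 and 867 CPM in WT and 724, 777 and 810.4 CPM in Scl -/- cells, lower without overlap but not called, with a log2 fold change of -0.15 (Benjamini-Hochberg adjusted p in limma = 0.456, or 0.125 with the block). Of the 6 haematopoietic markers, 4 were listed, all lower in Scl -/- cells and called with the block. Tal1, the disrupted gene, was the most abundant of them, and the other 3 summed to 32.9, 16.2 and 43.1 CPM in WT and 2.44, 2.66 and 3.06 CPM in Scl -/- cells, with Hbb-bh1 at 0 in all Scl -/- libraries. The 4 endothelial markers, led by Cdh5, summed to 181, 93.8 and 231 CPM in WT and 39.5, 14.9 and 52.3 CPM in Scl -/- cells, and all 4 were lower. WT replicate 2 was the lowest WT library for both sums, as it was for Gse1. Of the 5 FLK1+ mesoderm markers, the 4 other than Kdr were higher in Scl -/- cells with the block. The sum of all 5, led by Kdr, was 1262, 1413 and 1337 CPM in WT and 1385, 1801 and 1764 CPM in Scl -/- cells. The 4 pluripotent markers, led by Pou5f1, summed to 86, 150.4 and 109.9 CPM in WT and 87.3, 227 and 216 CPM in Scl -/- cells, and Pou5f1 and Nanog were higher with the block, though neither was called without pair 2 (0.52 and 0.87) or without pair 3 (0.37 and 0.51). Zfp42 and Sox2 had log2 fold changes of -0.14 and -0.04 and were not called. Of 3 cardiac markers 2 were listed, of which Myl7 was higher with the block, while Nkx2-5 was lower in all 3 pairs and not called (log2 fold change -0.21). Of 3 endoderm markers 1 was listed, Sox17, which was lower with the block, and of 3 neuroectoderm markers 1, Pax6, which was not called. The authors name Sox17 among genes of endothelial development. It had 14.7, 6.53 and 22 CPM in WT and 2.95, 0.967 and 5.56 CPM in Scl -/- cells. The part of these markers' cells in the differences of Gse1, Rcor3 and the partner genes was not tested.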

How the data were processed

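RNA from FLK1+ mesoderm was sequenced in 6 libraries, 3 WT and 3 Scl -/-. The authors aligned reads to mm9 with TopHat2 (2.0.8b, per the submitters' processing notes, with SAMtools 0.1.19), removed duplicate pairs, scaled with edgeR's TMM and deposited CPM values. The counting tool is not given in the sources used here. Values were fitted as log2(CPM + 0.5) by limma 3.58.1 (R 4.3.3), using lmFit and then eBayes with its trend on intensity, after the filter named above, and limma was tested on simulated data. Deviations from group means correlated at 0.59, 0.76 and 0.75 for libraries sharing a replicate number, so the numbers were taken as pairs. The labels tie these numbers to 3 independent differentiations. Libraries with different numbers correlated at -0.62 to -0.10. Deviations within a group cancel out, so positive values for shared numbers bring negative ones for the others, which are not separate evidence. Exon lengths and positions came from the GENCODE annotation of mm9. A symbol with several rows (Hdac4) was read from its most abundant row.

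Members and lists were chosen with earlier results of these data known. Named were Tal1, the members, list genes called in either fit, the most abundant gene per list (CPM per kb), tested genes within 500 kb of Gse1, and the 5 genes most like Gse1 and Kdm1a. Phf21a, Luzp1, Gm10516, Gm16621, Sin3a and the markers printed were named outside this rule, after their values were seen. Insm1, Hdac9, Hba-x, Ptprc, Foxa2, Afp, Sox1, Neurog2 and Tnnt2 were not analysed here, and Mideas was read as Elmsan1. Of the 4 planned paralogue ratios, 1 is not reported here. Alternatives were 0.1 or 1 as the pseudocount, all genes kept or those averaging at least 2 CPM, the block, median-ratio rescaling, no intensity trend, chromosome medians removed, no fold threshold and each library left out. Steps other than limma used Python 3.11.15, SciPy 1.17.1, NumPy 2.4.6, pandas 2.3.3 and Matplotlib 3.10.9.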

Additional observations from a re-analysis of the deposited data

How the results depend on the processing

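The log2 fold change of Gse1 stayed called and between -1.11 and -0.97 with each library left out, apart from WT replicate 1, without which it was -0.98 and not called. With the replicate block, 2 members, 11 listed partner genes and 1768 genes in all were called, and without the fold threshold 3, 18 and 3385. The block changed the call of no member other than Rcor3. With chromosome medians removed and the block, 1 member, 10 partner genes and 1492 genes in all were called. Leaving out a same-numbered pair, with the block, an alternative chosen after seeing the data, gave 2 members each time, 11, 9 and 10 partner genes, and 2062, 1122 and 1210 genes in all without pairs 1, 2 and 3. Leaving out each library without the block gave 0 to 1 members, 1 to 4 partner genes and 44 to 384 genes in all. The lowest of these came without WT replicate 1, and 128, 129 and 162 genes were called without WT replicate 3, Scl-/- replicate 2 and Scl-/- replicate 3. Some log2 fold changes near 0 changed sign with a library left out. They ran from -0.09 to 0.02 for Kdm1a, -0.0019 to 0.16 for Rcor2, -0.06 to 0.03 for Hdac1 and -0.08 to 0.06 for Hdac3. Without pair 1 Hdac1 was at 0.02, and without pair 3 Hdac3 was at 0.02. The causes were not tested. In fits without the block, Gfi1b was not called without WT replicate 1 (-3.49). In such fits Kdm5d was not called without WT replicates 1 or 3 or Scl-/- replicates 2 or 3, or with chromosome medians removed (1.30). Other pseudocounts, filters, rescaling and no trend changed no call of a member. Depth limits Gfi1 and Gfi1b, which had few reads in Scl-/- cells.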

Other observations

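Among the deacetylase genes that were not called, Hdac4 and Hdac6 had the lowest log2 fold changes, both -0.44. Hdac4 lies on chromosome 1, and with chromosome medians removed its log2 fold change was -0.16. Chd3 of the NuRD complex lies on chromosome 11, where the median log2 fold change was 0.31. It was lower in the Scl -/- library of all 3 pairs, with a log2 fold change of -0.38, and of -0.69 with chromosome medians removed (limma, Benjamini-Hochberg adjusted p with the block = 0.00149). In that setting Chd3 was called. These genes were chosen after their values were seen.

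Some corepressor genes followed the replicate numbers more than the genotype. Arid4b, a SIN3-associated gene, had 91.3, 107 and 38.2 CPM in WT and 99.2, 95.9 and 44 CPM in Scl -/- cells, replicates 1 to 3 in order, with replicate 3 lowest in both groups, and Arid4a had 38.3, 40.1 and 24.2 CPM in WT and 46.3, 36 and 25.7 CPM in Scl -/- cells. Both were chosen after their values were seen, and neither was called.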
